A study of Arabidopsis thaliana with 32 samples.

Results

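The iron deficiency response of Arabidopsis thaliana roots that overexpress IMA1 was measured in 4 RNA-seq libraries, 2 from control and 2 from iron-deficient plates, of 32 libraries in the series. The series holds roots and rosettes of 4 lines, each on both media with 2 libraries per group. The IMA1 OE line (35spro:IMA1 ORF) carries the At1g47400 open reading frame in the vector pH2GW7 under the 35S promoter, which is active in most cell types, so IMA1 was made outside its own pattern. The comparison lines are EYFP OE (35spro:EYFP), the transgenic control that carries a fluorescent protein in the same vector, IMA3 OE (35spro:IMA3 ORF) and opt3-2, a T-DNA insertion line of the phloem iron transporter OPT3. All plants grew under continuous light on ES plates with 1.5% sucrose for 10 days and were sampled 72 h after the move to fresh plates. Deficient plates lacked iron and held the ferrous iron chelator ferrozine, at 100 µM in one label and 300 µM in another. No table holds both IMA1 OE root groups, so each group was set against EYFP OE roots on control medium within its own table and the log2 differences were subtracted. Of 33607 loci, 20577 had a mean of at least 0.5 RPKM (read counts scaled by transcript length and library size, a unit inferred from the values since the files name none) over the 16 root libraries and were tested. The labels do not say whether the 2 libraries of a group came from separate cultures, so p-values measure the spread between libraries. Unless stated, that spread and each SE were pooled over the root groups of all 4 lines. They can thus differ from the spread of the IMA1 OE libraries shown beside them. Fewer cells of a type cannot be told apart from less RNA per cell.

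Iron-starved Arabidopsis roots reduce ferric iron at the surface with FRO2, import it with IRT1 and secrete coumarins that mobilise iron from the soil. The bHLH factor FIT and its partners bHLH38, bHLH39, bHLH100 and bHLH101 drive these genes, and the E3 ligases BTS, BTSL1 and BTSL2 restrain the response. IMA peptides, also named IRON MAN, are small iron-regulated peptides that promote the response and are known to bind these ligases. Overexpression of an IMA peptide is known to raise uptake genes and iron content even when iron is supplied.

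Construct rows went with the line labels of the libraries, and root marker genes were present. No rosette library was set beside the marker rows, so they do not test the tissue label. Neither kind of row checks the medium label. The row of the IMA1 construct stood at 318 and 298 RPKM in the control libraries and at 257 and 273 RPKM in the deficient libraries of the line, against 0.26 and 0.13 RPKM in EYFP OE roots on control medium. Root markers were present in the 4 libraries, with CASP1 of the endodermis at 74 to 82.8 RPKM and COBL9 of root hairs at 11.2 to 13.9 RPKM. Of 34 photosynthesis genes, used as markers of shoot tissue, none passed the test, and their summed level was 762 and 1126 RPKM on control medium and 662 and 933 RPKM on deficient medium. Among them LHCB1.3 was 135 and 192 RPKM on control medium and 126 and 168 RPKM on deficient medium, above CASP1 in each library. The summed level of 9 heat shock genes was 386 and 129 RPKM on control medium and 514 and 147 RPKM on deficient medium. Both sums separated replicate 1 from replicate 2 on either medium, and their part in the responses below was not tested. Counts were not given, so the depth of each library is unknown and precision rests on the replicate spread.

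Iron deficiency still changed the transcriptome of roots that already overexpressed IMA1. The coumarin enzyme gene S8H rose most among the genes named here, by 5.70 on the log2 scale, followed by the transcription factor gene MYB72. Of 7 iron storage genes tested, VTL2, VTL1 and FER1 fell. The test was of limma type, with Benjamini-Hochberg adjustment over all 20577 genes, and a gene was called at an adjusted p under 0.05. It called 230 genes, 1.12% of those tested, of which 196 rose (0.953%) and 34 fell (0.165%). In all 230 the control and deficient libraries did not overlap, while 12.7% of all genes had both deficient libraries above both controls and 19% had both below. A rise of more than 1 on the log2 scale was found in 84 called genes and a fall of more than 1 in 19. The count was 57 when only the spread of the IMA1 OE root groups was used, and with removal of a library it fell to 150 (control replicate 1), 144 (control replicate 2) or 117 (deficient replicate 1). Of 77 named genes that were called, 20 overlap another annotated gene, MYB72, MYB10, bHLH38, BTSL1, BTSL2, CIPK11, F6'H1, FPN2, 4CL1, COSY, C3'H, FRO3, YSL2, FER1, ZIP1, CSD1 and PPCK1 among them, and whether counting used the strand is not given in the sources used here, so their values may include reads of the neighbour, as may those of bHLH101, AHA7, NRAMP1 and ILR3.

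**Figure D1:**
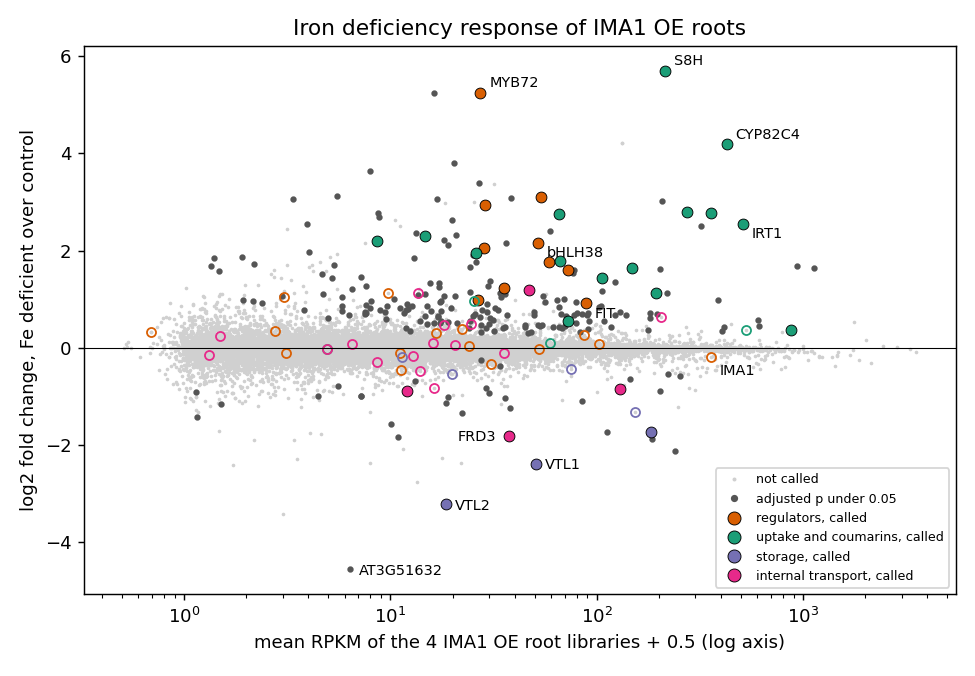
Response of each of the 20577 genes tested in IMA1 OE roots, as the log2 fold change of deficient over control medium against the mean RPKM of the 4 libraries on a log axis. Filled coloured points are called genes of 4 iron lists and open circles are members of the same lists that were not called. The 15 called uptake and coumarin genes lie above 0, and VTL2, at -3.21, VTL1 and FRD3 lie below it.

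Among the regulators, 10 of 25 tested genes rose and none fell, against 0.953% and 0.165% of all genes. The median of the 25 was 0.40, beside -0.01 over all genes tested, and the other 2 genes of the list, bHLH18 and bHLH19, were under the expression filter. MYB72, a MYB factor needed for coumarin release, was 0.79 and 1.06 RPKM on control medium and 54.2 and 51.1 RPKM on deficient medium. It rose by 5.25 ± 0.32 (log2 fold change ± SE, adjusted p = 3.34e-05), from near background to a level well above both control libraries. MYB10, its close relative, was 6.81 and 5.88 RPKM on control medium and 55.5 and 44.9 RPKM on deficient medium (2.93 ± 0.19, adjusted p = 3.34e-05). The 14-3-3 protein gene GRF11 rose by 2.06 ± 0.17, from 9.81 and 11.7 RPKM to 51.3 and 39.3 RPKM.

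The partners of FIT rose from a control level that was already above 8 RPKM for bHLH38, bHLH39 and bHLH100. bHLH100 was 13.7 and 8.53 RPKM on control medium and 106 and 84.1 RPKM on deficient medium (3.10 ± 0.33, adjusted p = 0.000539). bHLH38 was 23.3 and 14.9 RPKM on control medium and 100.25 and 67.3 RPKM on deficient medium (2.16 ± 0.26, adjusted p = 0.00127). bHLH39 was 32.1 and 21.5 RPKM on control medium and 109 and 70.4 RPKM on deficient medium (1.76 ± 0.34, adjusted p = 0.0324). In these 3 genes both deficient libraries were above both controls, and replicate 1 was the higher library on either medium. The bHLH39 call was lost without deficient replicate 1 (adjusted p = 0.34), control replicate 2 (0.225) or control replicate 1 (0.0612). bHLH101, the fourth partner, was 7.85 and 3.96 RPKM on control medium and 12.8 and 12.2 RPKM on deficient medium. Its change of 1.13 ± 0.28 did not pass (adjusted p = 0.118), although it did without control replicate 1 (1.58, adjusted p = 0.0222).

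FIT itself was 65.8 and 55.6 RPKM on control medium and 133 and 96.8 RPKM on deficient medium, a rise of 0.91 ± 0.15 (adjusted p = 0.0128). That call was lost without deficient replicate 1 (adjusted p = 0.129) or control replicate 2 (0.116). The kinase gene CIPK11, whose product acts on FIT, rose by 0.97 ± 0.13, from 18.1 and 16.9 RPKM to 36.1 and 33 RPKM. The ligase genes BTSL1 and BTSL2 rose by 1.59 ± 0.14 and 1.24 ± 0.11 (adjusted p = 0.000133 and 0.000178). BTS, their relative, was 17.9 and 19.6 RPKM on control medium and 25 and 24.4 RPKM on deficient medium and did not pass (0.40 ± 0.18, adjusted p = 0.698). PYE, a repressor under iron deficiency, changed by 0.30 ± 0.10 (adjusted p = 0.432). The genes bHLH34, bHLH104, bHLH115, ILR3 and bHLH121, which act upstream of the FIT partners, lay between -0.11 and 0.27 with no call.

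The upstream bases of 3 of these genes are shown because they hold CACGTG, the core that many bHLH factors are known to bind, and because bHLH38 and bHLH100 rose while BTS did not pass. Each sequence is the 250 bases before the annotated gene start in RefSeq TAIR10.1, written 5′ to 3′ on the strand of the gene, with CACGTG in capitals. The authors used TAIR10 and the files hold no coordinates.
bHLH38, chr3:21085246-21085495, minus strand: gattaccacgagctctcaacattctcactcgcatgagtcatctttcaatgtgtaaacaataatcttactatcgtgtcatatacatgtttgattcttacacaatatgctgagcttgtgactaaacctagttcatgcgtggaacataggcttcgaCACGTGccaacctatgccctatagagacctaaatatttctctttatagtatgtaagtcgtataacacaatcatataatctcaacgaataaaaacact
bHLH100, chr2:17199455-17199704, minus strand: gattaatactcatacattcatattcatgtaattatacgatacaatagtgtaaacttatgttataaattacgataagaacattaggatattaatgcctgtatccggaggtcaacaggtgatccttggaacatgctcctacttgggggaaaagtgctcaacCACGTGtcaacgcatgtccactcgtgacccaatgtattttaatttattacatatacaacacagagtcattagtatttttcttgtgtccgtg
BTS, chr3:6273716-6273965, plus strand: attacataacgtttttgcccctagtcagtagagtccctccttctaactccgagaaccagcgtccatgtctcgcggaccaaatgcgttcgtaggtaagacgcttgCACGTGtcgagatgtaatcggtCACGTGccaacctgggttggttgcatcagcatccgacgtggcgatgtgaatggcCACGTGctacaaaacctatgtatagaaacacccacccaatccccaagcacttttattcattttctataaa
The motif reads the same on both strands and begins 97 bases before the start of bHLH38 and 91 before bHLH100, and it stood 3 times in the window of BTS. It occurred in 7.21% of the 20131 tested genes with such a window, in 15 of 194 genes that rose (7.73%) and in 2 of 33 that fell (6.06%). It was present in 5 of 25 regulators (20%) and in 1 of 19 uptake genes (5.26%). The windows of the other FIT partners, bHLH39 and bHLH101, lacked it, as did those of FIT, MYB72, MYB10, BTSL1 and BTSL2. A match describes the letters and does not show binding.

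Iron uptake and coumarin genes rose together. Of 19 genes, all of which were tested, 15 rose and none fell, against 0.953% and 0.165% of all genes, and the median of the 19 was 1.79. IRT1, the main iron importer of the root epidermis, was 161 and 136 RPKM on control medium and 980.2 and 759 RPKM on deficient medium (2.56 ± 0.24, adjusted p = 0.000243). FRO2, the ferric reductase, was 99.8 and 84.3 RPKM on control medium and 679 and 572 RPKM on deficient medium (2.77 ± 0.21, adjusted p = 7.33e-05). For both genes the deficient libraries were several times above the controls with no overlap. IRT2, a metal transporter of internal membranes, rose from 4.61 and 4.44 RPKM to 26.1 and 21.5 RPKM (2.31 ± 0.32). The vacuolar metal transporters MTP8, FPN2 and MTP3, which take manganese, cobalt and nickel, and zinc out of the cytosol, rose by 2.203 ± 0.212, 1.94 ± 0.23 and 1.79 ± 0.17. MTP3 went from 31.6 and 27.7 RPKM to 119 and 86.4 RPKM.

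The coumarin pathway moved along its length. F6'H1, which commits feruloyl-CoA to coumarins, was 58 and 80.6 RPKM on control medium and 479 and 476 RPKM on deficient medium (2.80 ± 0.31, adjusted p = 0.000685). S8H, which makes fraxetin, was 8.9 and 6.75 RPKM on control medium and 470.3 and 372 RPKM on deficient medium (5.70 ± 0.37, adjusted p = 3.34e-05). CYP82C4, which makes sideretin from fraxetin, was 48.5 and 41.2 RPKM on control medium and 866 and 746 RPKM on deficient medium (4.19 ± 0.38, adjusted p = 0.000185). All 3 rose with no overlap, and the later enzymes S8H and CYP82C4 had the larger folds. BGLU42, a glucosidase needed for coumarin release, rose by 2.76 ± 0.21 from 16.2 and 17 RPKM to 116 and 112 RPKM, and the exporter gene ABCG37 rose by 1.65 ± 0.16 from 78.6 and 64 RPKM to 242 and 209 RPKM. F6'H2, the weakly expressed relative of F6'H1, was 4.27 and 4.79 RPKM on control medium and 4.99 and 3.73 RPKM on deficient medium, with no call.

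The smaller rises in the list were those of 4CL2 and 4CL1, which activate phenylpropanoid acids, at 1.44 ± 0.15 and 1.12 ± 0.13, of COSY, the coumarin synthase gene, at 0.55 ± 0.08 (adjusted p = 0.00687), and of CCoAOMT1 at 0.37 ± 0.08 (adjusted p = 0.04). CCoAOMT1 lost its call under every removal of 1 library, with log2 values of 0.33 to 0.42. Without an EYFP OE control library its value was 0.37 or 0.38, since these libraries cancel in the subtraction and mainly the spread estimate changed. COSY lost its call without control replicate 1 (log2 value 0.50) or deficient replicate 2 (0.51). Over such removals the number of the 19 genes that rose was 13 to 15, and the number of regulators 8 to 10. The proton pump genes AHA7 and AHA2 changed by 0.96 ± 0.23 and 0.37 ± 0.13 (adjusted p = 0.0999 and 0.454), and AHA7 passed without control replicate 2 (1.33, adjusted p = 0.0215). NRAMP1, a manganese and iron importer, was 62.6 and 51.5 RPKM on control medium and 60.7 and 59.9 RPKM on deficient medium. Of 6 general phenylpropanoid enzymes, which feed coumarin synthesis, 4 rose, against 0.953% of all genes, and the median of the 6 was 0.59. PAL2 rose most, from 92.9 and 105 RPKM to 306 RPKM in both deficient libraries (1.62 ± 0.17), and PAL1, HCT and C3'H rose by 0.99 ± 0.16, 0.62 ± 0.10 and 0.56 ± 0.11. When 1 library was left out, C3'H lost its call each time, with log2 values of 0.48 to 0.64. Its value stayed at 0.56 without either EYFP OE control library, where only the spread estimate changed. HCT lost its call without deficient replicate 1 (log2 value 0.54) or control replicate 2 (0.49), and PAL1 without deficient replicate 2 (0.85) or control replicate 1 (0.78).

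**Figure D2:**
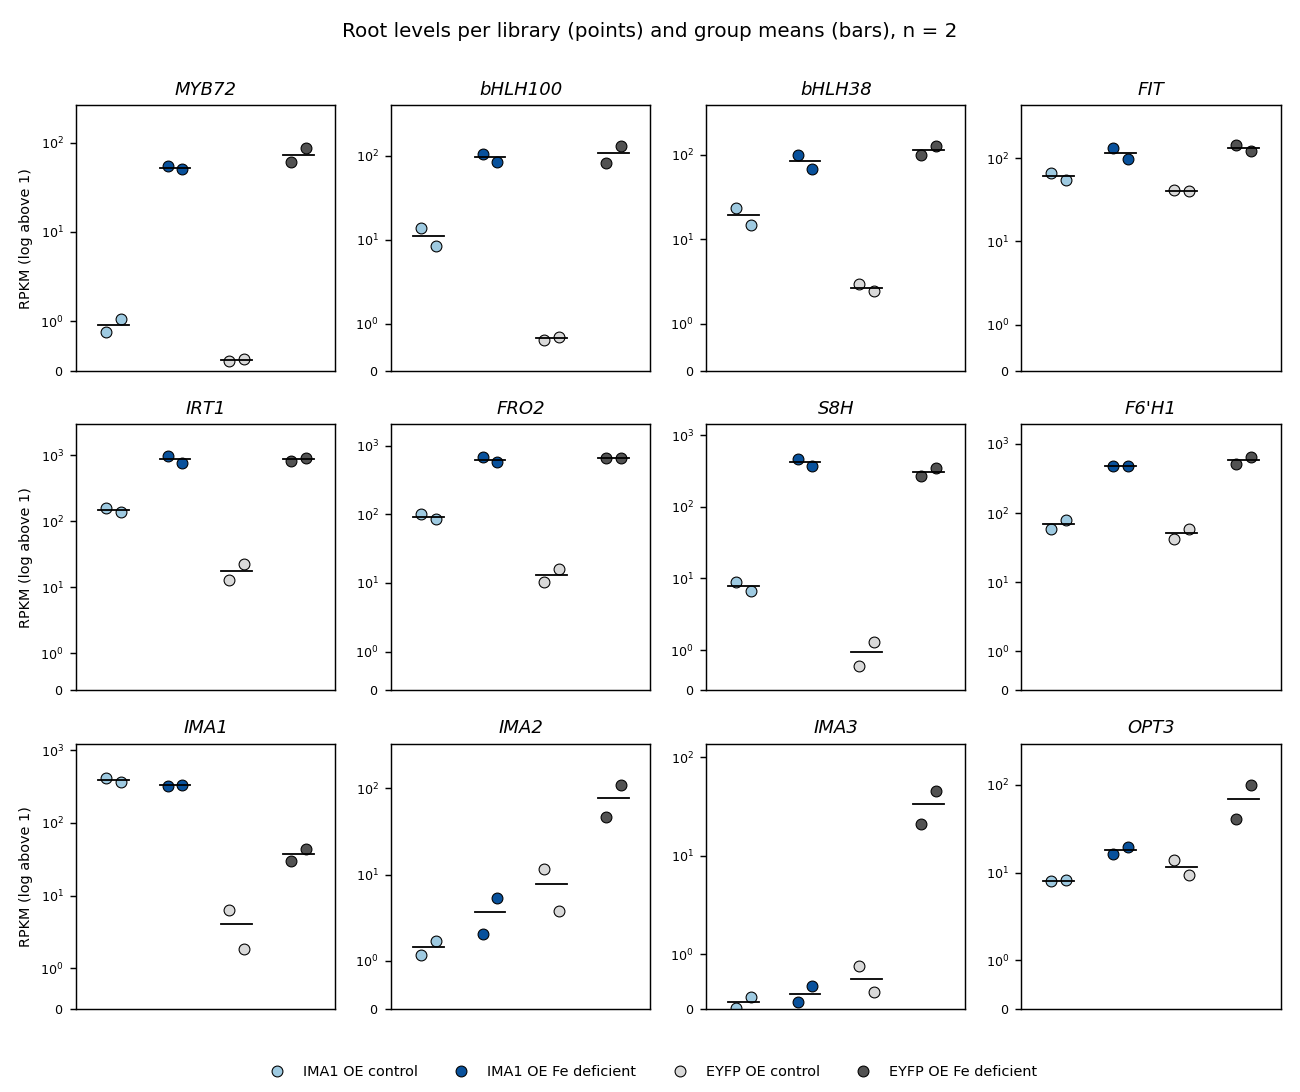
RPKM of 12 iron genes in each library of IMA1 OE and EYFP OE roots on control and deficient medium, on an axis that is linear up to 1 and logarithmic above it, with group means as bars (n = 2). On deficient medium IRT1 and FRO2 lie at like levels in both lines, while IMA3 stays under 0.5 RPKM in IMA1 OE roots and reaches 21 and 45.8 RPKM in EYFP OE roots.

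The IMA genes themselves did not rise past the threshold in this line. The IMA1 row, which cannot separate native from transgene transcripts, was 410 and 366 RPKM on control medium and 322 and 331 RPKM on deficient medium (-0.20 ± 0.38, adjusted p = 0.999). IMA3 was 0.02 and 0.22 RPKM on control medium and 0.12 and 0.41 RPKM on deficient medium (0.34 ± 0.34, adjusted p = 0.999). IMA2 was 1.18 and 1.7 RPKM on control medium and 2.04 and 5.32 RPKM on deficient medium (1.04 ± 0.50, adjusted p = 0.782). In EYFP OE roots IMA3 went from 0.78 and 0.31 RPKM to 21 and 45.8 RPKM, and IMA2 from 11.6 and 3.8 RPKM to 45.9 and 110 RPKM. The 2 lines thus did not overlap on deficient medium for either gene. IMA3 overlaps 2 other annotated genes, AT2G30760 and AT2G30770, so its reads cannot be told apart from theirs with certainty. The phloem transporter gene OPT3 was 8.01 and 8.21 RPKM on control medium and 16.5 and 19.7 RPKM on deficient medium and did not pass (1.12 ± 0.31, adjusted p = 0.2).

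Iron storage genes moved the other way. Of 7 tested genes, 3 fell and none rose, against 0.165% of all genes, with a median of -1.32, while VIT1, VTL3 and VTL4 were under the filter. VTL2, a vacuolar iron transporter-like gene, was 33.5 and 32.8 RPKM on control medium and 2.57 and 3.58 RPKM on deficient medium (-3.21 ± 0.32, adjusted p = 0.000356). VTL1, of the same family, was 84.3 and 85.7 RPKM on control medium and 15.7 and 15.6 RPKM on deficient medium (-2.38 ± 0.34, adjusted p = 0.00446). FER1, the main ferritin gene, was 258 and 306 RPKM on control medium and 86.8 and 80.7 RPKM on deficient medium (-1.74 ± 0.25, adjusted p = 0.00432). Each of the 3 dropped with no overlap, and FER1 lost its call only when control replicate 2 was left out (adjusted p = 0.0516). VTL5 was 278 and 160.1 RPKM on control medium and 109 and 63.6 RPKM on deficient medium, with no overlap, and did not pass (-1.32 ± 0.37, adjusted p = 0.213). The ferritin genes FER2, FER3 and FER4 changed by -0.18, -0.44 and -0.54 with no call.

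These storage genes began from a higher control level in IMA1 OE roots than in EYFP OE roots. VTL2 was 4.71 and 11 RPKM, VTL1 14.2 and 34 RPKM and FER1 74.8 and 128 RPKM in EYFP OE roots on control medium, each below both IMA1 OE control libraries. On deficient medium VTL2 was 2.4 and 2.42 RPKM and VTL1 13.3 and 7.17 RPKM in EYFP OE roots, and FER1 was 38.7 and 23.8 RPKM. All 3 were under both IMA1 OE libraries there too, with IMA1 OE above EYFP OE by 0.26 for VTL2, 0.64 for VTL1 and 1.45 for FER1 on the log2 scale, against 2.06, 1.89 and 1.51 on control medium. The responses of FER1 in the 2 lines differed by -0.06 (95% interval -0.83 to 0.72), and that of VTL2 by -1.80 (-2.80 to -0.80), with adjusted p = 1 and 0.592.

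Within-plant iron transport genes gave few calls. Of 19 tested genes, FRO3 rose and FRD3, YSL2 and NAS2 fell, with a median of -0.03, while 0.953% of all genes rose and 0.165% fell. FRD3, the citrate exporter that loads the xylem, was 65.1 and 50.4 RPKM on control medium and 18.9 and 13.2 RPKM on deficient medium (-1.81 ± 0.20, adjusted p = 0.0006). NAS2, a nicotianamine synthase gene, fell from 156 and 176 RPKM to 85.9 and 96.8 RPKM (-0.85 ± 0.18, adjusted p = 0.0483), and YSL2, a metal-nicotianamine transporter gene, from 15.4 and 14.7 RPKM to 7.45 and 8.36 RPKM (-0.88 ± 0.12, adjusted p = 0.00354). NAS1, of the same enzyme family, was 169 and 150.1 RPKM on control medium and 272 and 223 RPKM on deficient medium and did not pass (0.63 ± 0.18, adjusted p = 0.239). FRO3, a mitochondrial ferric reductase gene, rose from 30.1 and 26.4 RPKM to 71.4 and 57.4 RPKM (1.18 ± 0.19, adjusted p = 0.00941). The NAS2 call was lost without any 1 of the 4 IMA1 OE root libraries (adjusted p = 0.126 to 0.39), YSL2 without deficient replicate 1 (0.055), and FRO3 without deficient replicate 1 (0.129) or control replicate 2 (0.0891). Genes such as FPN1, which exports iron to the xylem, PIC1, YSL4 and YSL6 stayed within 0.1 of 0 on the log2 scale or close to it, at -0.03, -0.10, 0.08 and 0.10.

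**Figure D3:**
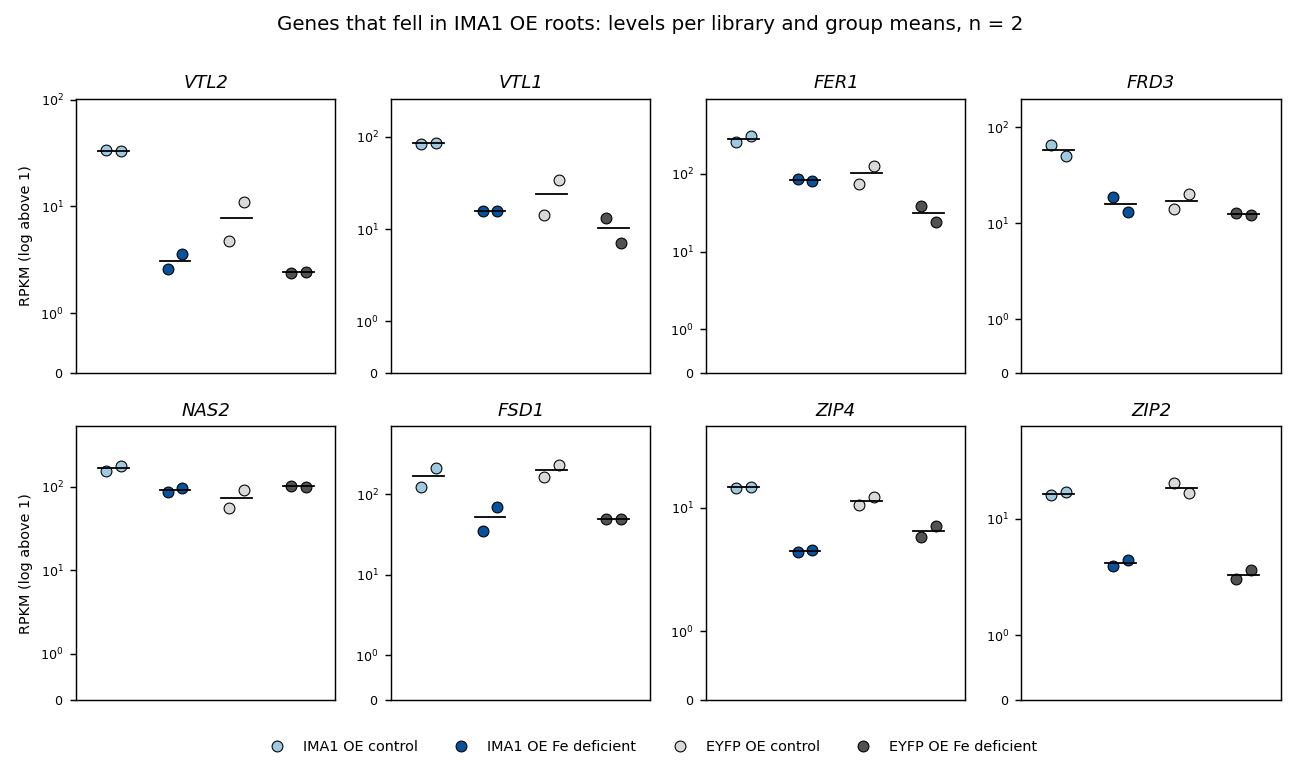
RPKM of 8 genes that fell in IMA1 OE roots, in each library of IMA1 OE and EYFP OE roots on control and deficient medium, on an axis that is linear up to 1 and logarithmic above it, with group means as bars (n = 2). VTL2, VTL1, FER1, FRD3 and NAS2 are higher in IMA1 OE than in EYFP OE control libraries, while FSD1, ZIP4 and ZIP2 start from overlapping or nearby levels.

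Genes of other metals changed in both directions. Among 15 zinc transport genes, HMA3 and ZIP9 rose and ZIP4, IRT3, ZIP3 and ZIP1 fell, with a median of -0.06. Over all genes 0.953% rose and 0.165% fell. ZIP4, a zinc uptake gene, was 14.5 and 14.9 RPKM on control medium and 4.43 and 4.58 RPKM on deficient medium (-1.57 ± 0.15, adjusted p = 0.00021). IRT3 fell from 51 and 54.3 RPKM to 20.7 and 23.5 RPKM (-1.23 ± 0.13), and ZIP1 from 8.72 and 9.68 RPKM to 4.29 and 4.2 RPKM (adjusted p = 0.000461). HMA3, a vacuolar pump for zinc and cadmium, was 4.54 and 3.25 RPKM on control medium and 26 and 17.5 RPKM on deficient medium (2.36 ± 0.20, adjusted p = 0.000136). These 4 genes kept their calls when any 1 library was left out. ZIP3 (-1.02 ± 0.18) did not without any 1 of the 4 IMA1 OE root libraries (adjusted p = 0.0837 to 0.131), nor ZIP9 (1.51 ± 0.24) without control replicate 2 (0.0886).

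Among 11 copper genes, COPT2 rose and ZIP2 and CCH fell, with a median of -0.30, while 0.953% of all genes rose and 0.165% fell. COPT2, a copper importer gene, was 6.68 and 5.52 RPKM on control medium and 30.1 and 28.3 RPKM on deficient medium (2.21 ± 0.21, adjusted p = 0.000221). ZIP2, a metal transporter gene, fell from 16 and 16.9 RPKM to 3.97 and 4.44 RPKM (-1.83 ± 0.21, adjusted p = 0.000984), and the copper chaperone gene CCH from 262 and 259 RPKM to 149 and 134 RPKM (-0.89 ± 0.13). CCH missed the threshold without deficient replicate 2 (adjusted p = 0.0645), control replicate 1 (0.0535) or control replicate 2 (0.051). Of 13 superoxide and peroxide enzymes, the iron superoxide dismutase gene FSD1 fell, and the copper/zinc enzyme gene CSD1 and its chaperone gene CCS rose, beside the same shares of all genes. FSD1 was 125 and 215 RPKM on control medium and 35 and 69.3 RPKM on deficient medium (-1.74 ± 0.34, adjusted p = 0.0324). CSD1 rose from 529 and 501 RPKM to 710.4 and 698 RPKM (0.44 ± 0.07), and CCS from 55.1 and 49.7 RPKM to 72.9 and 66.3 RPKM (0.42 ± 0.07). FSD1 and CCS lost their calls without deficient replicate 1 (adjusted p = 0.314 and 0.181) or control replicate 2 (0.231 and 0.123), and CSD1 without either of those (0.12 and 0.0981) or deficient replicate 2 (0.0645).

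The 12 largest rises included 8 genes that no iron list holds. CYP71B5, a cytochrome P450 gene, was 0.34 and 0.35 RPKM on control medium and 29.4 and 32.9 RPKM on deficient medium (5.24 ± 0.45, adjusted p = 0.000136). AT1G52120, annotated as a mannose-binding lectin, rose from 2.8 and 1.77 RPKM to 42.7 and 32.3 RPKM (3.80 ± 0.26), and AT5G38820, a putative amino acid transporter, from 4.37 and 4.21 RPKM to 55.3 and 42 RPKM (3.38 ± 0.24). SCRL28, AT3G51200, a SAUR-like gene, AT3G61930, AT5G55620 and AT4G17680 rose by 3.06 to 3.64. All 8 kept their calls when any 1 library was left out, and all were at or under 8.31 RPKM in the control libraries.

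Among the 12 largest falls, 2 genes encode defensin-like proteins. AT3G59930 was 427 and 346 RPKM on control medium and 99.9 and 77.8 RPKM on deficient medium (-2.12 ± 0.19, adjusted p = 0.000198). AT5G33355 was 316 and 261 RPKM on control medium and 100.4 and 60.2 RPKM on deficient medium (-1.87 ± 0.29, adjusted p = 0.00866), and it lost its call without control replicate 1 (0.0821) or deficient replicate 2 (0.075). Their gene sequences share 222 words of 31 bases, of 799 in AT3G59930, so reads could be split between them and their separate values are uncertain. AT3G20340 (-1.34 ± 0.27, adjusted p = 0.0442) and the weakly expressed AT3G04854 (-1.41 ± 0.30, adjusted p = 0.0494) lost their calls without any 1 of the IMA1 OE root libraries. Their log2 values were then -1.49 to -1.20 and -1.44 to -1.39. AT3G04854 also lost its call without either EYFP OE control library, where its value stayed at -1.41 and only the spread estimate changed. The largest fall, of AT3G51632, is described with its neighbour WNK5 below.

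Most of the other lists gave no call in this response, in which 0.953% of all genes rose and 0.165% fell. None passed among the genes of iron-sulfur cluster assembly (19 tested, median -0.03), tetrapyrrole synthesis (10, -0.26), aliphatic glucosinolate synthesis (11, -0.17), flavonoid synthesis (9, -0.36), ethylene (12, -0.07), jasmonate and wounding (9, -0.27), salicylate and pathogen response (10, -0.10), stress signalling (8, -0.07) or the circadian clock (11, -0.06). The same held for root hair (9, 0.15), endodermis (9, -0.02), suberin (12, 0.02), phloem (6, -0.07), xylem (8, -0.08) and dividing cell (7, 0.04) markers, and for the photosynthesis (34, -0.24) and heat shock (9, 0.28) genes. Of 13 phosphate starvation genes, PPCK1, a kinase of phosphoenolpyruvate carboxylase, rose by 0.51 ± 0.07 from 64.3 and 65.4 RPKM to 95.7 and 88.7 RPKM, a call that was lost without deficient replicate 1 (adjusted p = 0.0727).

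The response of IMA1 OE roots was set beside that of the transgenic control line in a test of the difference between both responses. It was smaller in IMA1 OE roots for the iron importer gene IRT1, the reductase gene FRO2, the FIT partners bHLH38, bHLH100 and bHLH101, and the peptide gene IMA3. These genes were higher than in EYFP OE roots on control medium, apart from IMA3, and reached like levels on deficient medium, apart from IMA3 and bHLH101. IMA3 was under 0.5 RPKM in every IMA1 OE library, so its response in this line is hardly measurable. In all, 14 genes were called (0.068%), 13 with a smaller or more negative value in IMA1 OE roots (0.0632%) and 1, WNK5, with a larger one. Among uptake and coumarin genes 19 of 19 differences were negative and 3 were called, and among regulators 23 of 25 were negative and 4 were called, beside 47.2% negative over all genes. The regulators include IMA1, whose row cannot separate native from transgene transcripts, and IMA3. Other lists were as one-sided: 11 of 11 aliphatic glucosinolate, 10 of 10 salicylate and pathogen, 6 of 6 phenylpropanoid, 8 of 9 jasmonate and 8 of 9 endodermis differences were negative, with medians of -0.38, -0.37, -0.31, -0.40 and -0.34 beside -0.44 for uptake and -0.63 for regulators. The median response was 1.79 in IMA1 OE and 2.96 in EYFP OE roots for the uptake list, and 0.40 and 1.47 for the regulators.

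IRT1 was 13 and 22.6 RPKM in EYFP OE roots on control medium and 836 and 927 RPKM on deficient medium, a change of 5.64. The IMA1 OE response differed by -3.05 ± 0.34 on the log2 scale (adjusted p = 0.00851), with IMA1 OE above EYFP OE by 3.04 on control medium and at -0.01 on deficient medium. FRO2 went from 10.4 and 15.9 RPKM to 669 and 654 RPKM in EYFP OE roots, and the responses differed by -2.83 ± 0.30 (adjusted p = 0.00711). For both genes the lines overlapped on deficient medium and stood apart on control medium. bHLH38 went from 2.96 and 2.41 RPKM to 99.4 and 127 RPKM in EYFP OE roots (difference -2.99 ± 0.37, adjusted p = 0.0123), and bHLH100 from 0.65 and 0.73 RPKM to 82.7 and 131 RPKM (-3.35 ± 0.46, adjusted p = 0.0253). bHLH101 went from 1.5 and 1.2 RPKM to 20.2 and 29.8 RPKM in EYFP OE roots, above both IMA1 OE libraries on deficient medium (difference -2.64 ± 0.39, adjusted p = 0.0457). MTP3 differed by -2.05 ± 0.24 (adjusted p = 0.00851), AT1G52120 by -2.75 ± 0.36 (0.0194) and IMA3 by -4.62 ± 0.48 (0.00711). The other 4 genes with a smaller response, apart from AT3G51632, were AT3G07720, UGT72E1, PP2-A8 and the noncoding RNA AT3G57157, which the rule for named genes did not pick, at -1.21 to -2.01.

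Of these, the IMA3 and AT3G51632 differences kept their calls in every removal of 1 library, and 2 genes in all were called without EYFP OE deficient replicate 2. Without that library the adjusted p was 0.059 for FRO2, 0.067 for IRT1 and MTP3, 0.0929 for bHLH38, 0.106 for AT1G52120, 0.149 for bHLH100 and 0.195 for bHLH101. The values themselves were -2.84 for FRO2 and -2.98 for IRT1. With only the spread of the compared groups the count was also 2. IMA3 was under 0.5 RPKM in every IMA1 OE library and passed the filter only through other groups. Its difference thus rests on its rise in EYFP OE roots, and AT3G51632 belongs to the pair of rows described below. MTP3 and bHLH38 also missed the threshold without IMA1 OE control replicate 1 (0.0511 for both), and bHLH38 without EYFP OE control replicate 2 (0.0692) or IMA1 OE deficient replicate 2 (0.0666). Calls of bHLH100 and bHLH101 were lost in all removals except those of IMA1 OE control replicate 2 and EYFP OE deficient replicate 1, with adjusted p up to 0.169 and 0.251. AT1G52120 was called only without IMA1 OE control replicate 2 or deficient replicate 1, with adjusted p up to 0.127 in the other 6. Differences of like size did not pass for IMA1 (-3.36, 95% interval -4.55 to -2.17, adjusted p = 0.0714) and bHLH39 (-2.88, -3.94 to -1.81, adjusted p = 0.0912). The IMA1 row of IMA1 OE roots includes transgene transcripts, so its difference is not read as a response of the native gene. IMA1 passed without EYFP OE control replicate 1 (-4.13, adjusted p = 0.00151) or replicate 2 (-2.58, 0.0262), and bHLH39 without the former (-3.39, 0.0402). NAS2 passed without EYFP OE control replicate 2 (-1.71, adjusted p = 0.00218) and OPT3 without EYFP OE deficient replicate 1 (-1.94, 0.0269).

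Other genes showed intervals that do or do not reach 0, with no call. F6'H1 and BGLU42 responded by 2.80 and 2.76 in IMA1 OE and by 3.50 and 2.96 in EYFP OE roots, with differences of -0.70 (95% interval -1.67 to 0.26) and -0.19 (-0.83 to 0.45). For ABCG37 the difference was -0.44 (-0.95 to 0.07), and for IRT3 it was -0.14 (-0.56 to 0.27). S8H and CYP82C4 differed by -2.06 (-3.19 to -0.92) and -2.84 (-4.01 to -1.66), with adjusted p = 0.571 and 0.157. FIT differed by -0.78 (-1.25 to -0.30, adjusted p = 0.745).

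**Figure D4:**
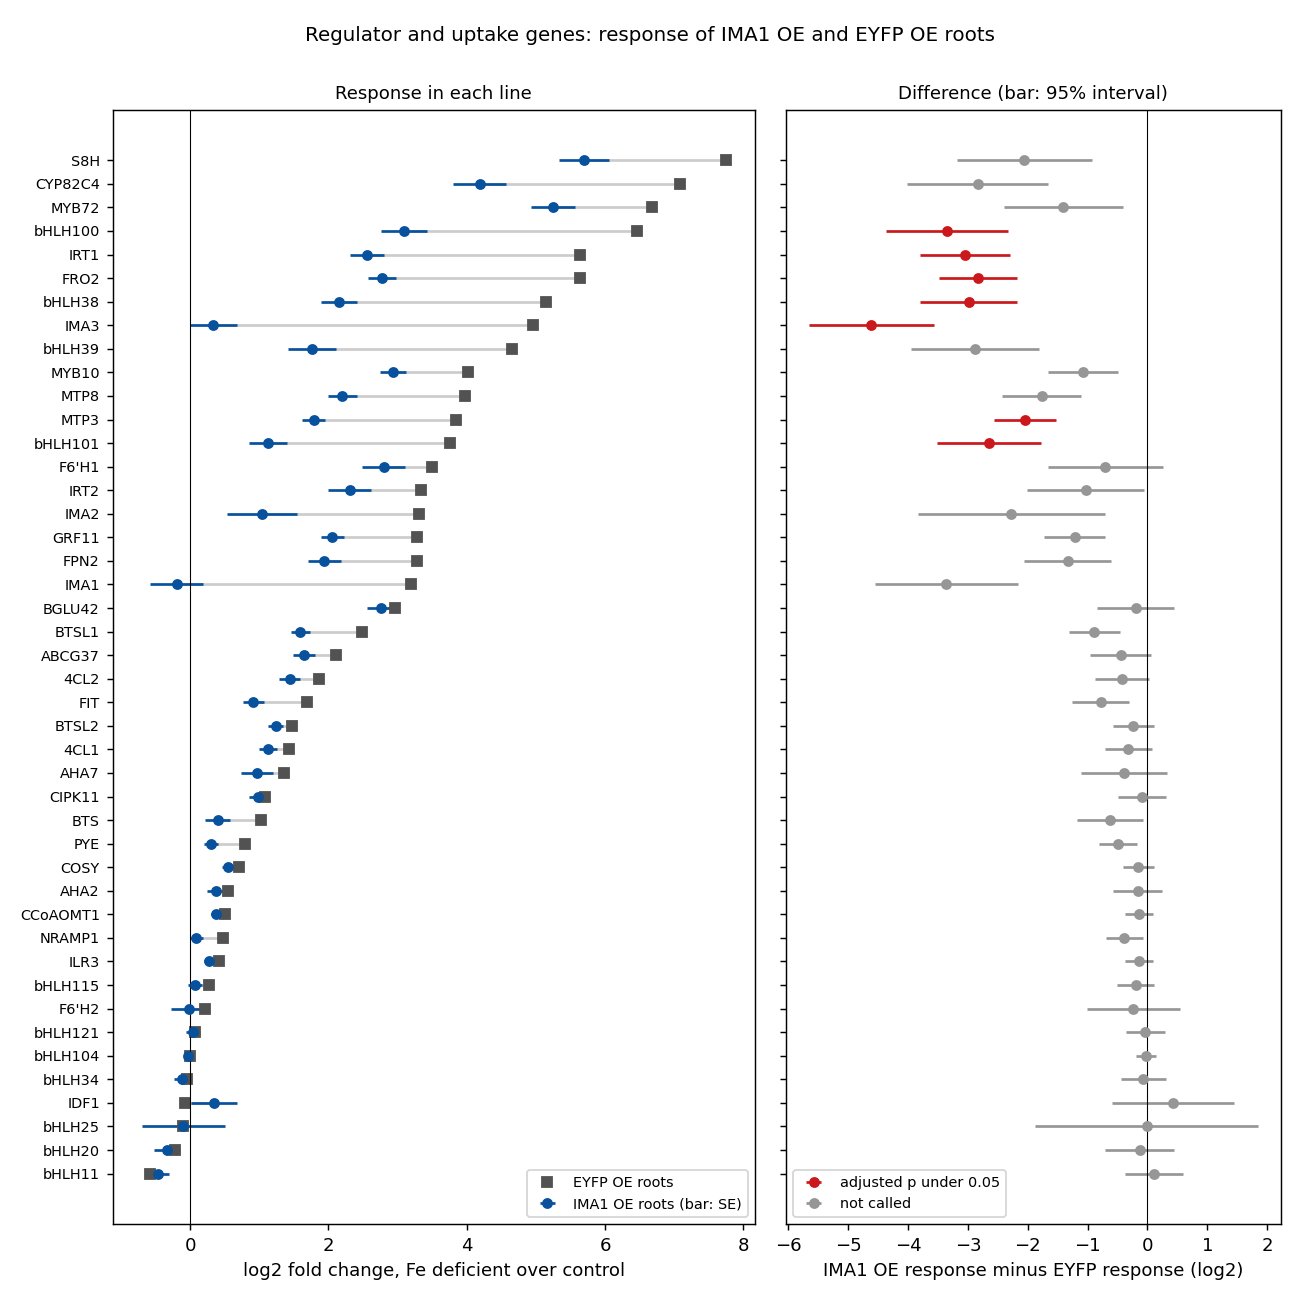
Log2 responses to iron deficiency of the 44 tested regulator and uptake genes, with those of IMA1 OE roots (circles, bars are SE) and EYFP OE roots (squares) in the left panel and their difference with its 95% interval in the right panel. Red marks the 7 called differences, which are IMA3, bHLH100, IRT1, bHLH38, FRO2, bHLH101 and MTP3, all negative.

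Against the other overexpressor, 2 genes were called (0.00972%), AT3G51632, which was smaller in IMA1 OE roots (0.00486%), and WNK5, which was larger, and against opt3-2 4 were called (0.0194%), the same pair with AT1G47405 and DIN11. With no filter on low values these counts were 34 and 22. The opt3-2 count was 2 with a pseudocount of 0.1 or a filter of mean 2 RPKM, and 1 with only the spread of the compared groups. It was 1 without IMA1 OE control replicate 1 or opt3-2 deficient replicate 1, and 2 without IMA1 OE control replicate 2, IMA1 OE deficient replicate 1 or either opt3-2 control library. The IMA3 OE count was 1 without either IMA1 OE control library, IMA1 OE deficient replicate 2, IMA3 OE control replicate 1 or IMA3 OE deficient replicate 2. These comparisons share the IMA1 OE libraries with each other and with the one above. IRT1 responded by 2.56 in IMA1 OE, 2.80 in IMA3 OE and 1.29 in opt3-2 roots, and FRO2 by 2.77, 3.13 and 1.63. The uptake list had medians of 1.79, 1.45 and 1.198, and the storage list -1.32, -0.90 and -2.04, in the same order. Without 1 library, IMA3 OE deficient replicate 1, the count against IMA3 OE was 36, and the deposited values of the table of those IMA3 OE libraries summed to 693287 and 740599 RPKM beside 661434 and 673145 RPKM for the EYFP OE libraries. DIN11, a dark-induced oxygenase gene, fell by 0.90 in IMA1 OE roots, from 0.91 and 1.07 RPKM to 0.29 RPKM in both deficient libraries, and changed by -3.21 in opt3-2 roots (difference 2.31 ± 0.24, adjusted p = 0.00859). AT1G47405 was at or under 0.07 RPKM in every IMA1 OE library and rose by 2.95 in opt3-2 roots (difference -2.87 ± 0.33, adjusted p = 0.0209). It passed the expression filter only through other lines, so that difference rests on its rise in opt3-2 roots. The DIN11 fall lost its call without any 1 of the 4 IMA1 OE root libraries (adjusted p = 0.0869 to 0.178). The AT1G47405 call was lost without any 1 of the IMA1 OE and opt3-2 libraries except opt3-2 control replicate 1 (adjusted p up to 0.151), and the DIN11 difference without replicate 1 of any of the 4 groups (up to 0.0838).

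AT3G51632 and the neighbouring locus WNK5, a kinase gene, gave the only calls in all 4 comparisons, and their rows move as 1. AT3G51632 was 12.2 and 11.2 RPKM on control medium and is listed at 0.01 RPKM in both deficient libraries (-4.56 ± 0.08, adjusted p = 1.27e-10). WNK5 was 12 and 11.1 RPKM on control medium and 23.4 and 21.4 RPKM on deficient medium (0.95 ± 0.08, adjusted p = 0.000133). Averaged over tables, the rows summed to 23.9 and 22.1 RPKM in the control libraries and to 23.4 and 21.3 RPKM in the deficient libraries. In each of the other 14 root libraries the ratio of the AT3G51632 row to the WNK5 row was 1.01, and in the IMA1 OE deficient libraries it was 0.000214 and 0.000234. The sum changed little while its split between the rows changed, so neither row is read here as the level of its own transcript, and RefSeq TAIR10.1 has no entry for AT3G51632. The WNK5 differences from EYFP OE (0.93), IMA3 OE (1.03) and opt3-2 (0.94) were lost in 4, 7 and 7 removals of 1 library, with adjusted p up to 0.0929, 0.175 and 0.189. Of 44 neighbouring pairs of loci whose ratio was as steady over the other 14 libraries (log2 range under 0.1), this pair was the only one to shift by more than 1 in the IMA1 OE deficient libraries. Without the pair the counts of called genes were 228 for the response, 12 against EYFP OE, 0 against IMA3 OE and 2 against opt3-2. Against IMA3 OE, 533 of the 20577 genes had an unadjusted p under 0.05 by the limma-type test, beside 832 against EYFP OE and 872 against opt3-2. Each is a share below 0.05, the share such a threshold gives where no gene differs.

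**Figure D5:**
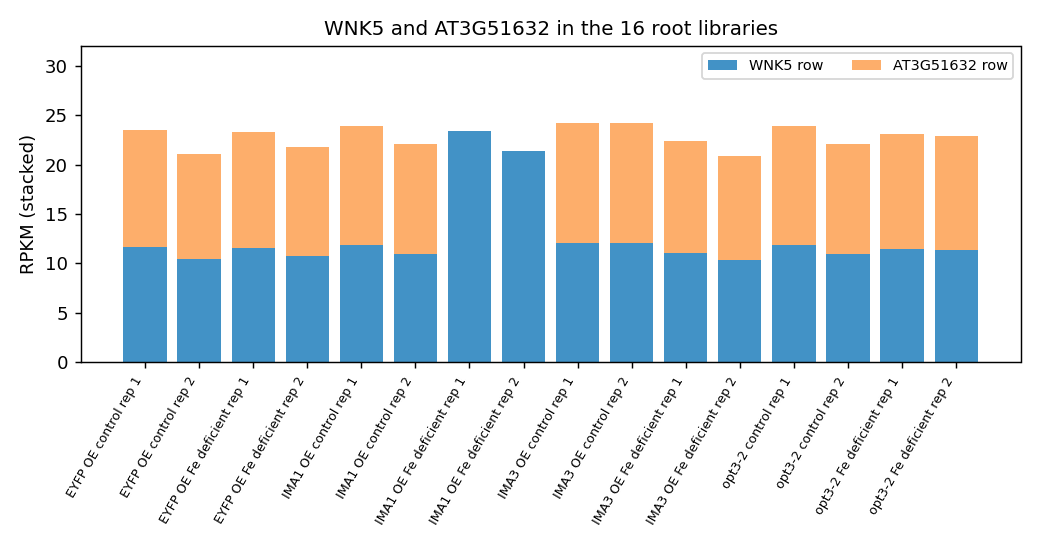
RPKM of the WNK5 row (blue) and the AT3G51632 row (orange) stacked for each of the 16 root libraries, averaged over the tables that hold the library. The stacked height is 20.8 to 24.2 RPKM in all 16, and the orange part is missing in the 2 IMA1 OE deficient libraries.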

How the data were processed

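Stranded mRNA libraries of roots and rosettes were sequenced, and the root libraries are used here. Per the submitters' processing notes the build was TAIR10. Tools of the authors, per the submitters' processing notes and with no role given, were Bowtie2 2.0.6, Trimmomatic 0.35, bcl2fastq 1.8.4, and the R packages limma 3.26.9 and edgeR 3.12.1. The authors deposited values, treated here as RPKM, in 13 root tables, each holding the libraries of 2 groups. The file headers name no unit: RPKM was inferred because the smallest values above 0 were larger in shorter genes, and the quartiles of the libraries in a table were nearly equal. No counts were given, so no count model was run and depth is unknown. The authors' fold changes and p-values were not used.

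From these values, log2(RPKM + 0.5) was taken, which understates changes of low genes. Each IMA1 OE group was compared with EYFP OE roots on control medium in its own table and the values subtracted. The residual variance came from 8 root groups (8 residual degrees of freedom) and was moderated with limma 3.58.1 in R 4.3.3, with Benjamini-Hochberg adjustment over 20577 genes at 0.05. Differences between lines used the same fit. Symbols and sequences come from RefSeq TAIR10.1, which matched 20370 of the tested loci. Scripts were tested on simulated data.

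Members of 26 gene lists and the comparisons were chosen with earlier results of these data known. Genes open to naming were all members of 4 iron lists and called members of the other lists. Also open were the 12 largest rises and 12 largest falls among called genes without overlap. The 6 largest differences each way from EYFP OE, and 3 each way from IMA3 OE and opt3-2, joined them. Not every member of the 4 iron lists is described in the text. A few more genes were added after their values were seen and are said to be. Alternatives were other pseudocounts (0.1 and 1), filters, references, centring, variance estimates, a replicate block and leaving out each library. Rosette libraries were not analysed here.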

Additional observations from a re-analysis of the deposited data

Results flagged for a closer look

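By the test of the difference itself, the response to iron deficiency was called different between IMA1 OE and EYFP OE roots for 14 genes. Without the AT3G51632 and WNK5 pair the count was 12. Values are log2 responses in IMA1 OE minus those in EYFP OE roots. Among iron genes they were -4.62 for IMA3, -3.35 for bHLH100, -3.05 for IRT1, -2.99 for bHLH38, -2.83 for FRO2, -2.64 for bHLH101 and -2.05 for MTP3. IMA3 was under 0.5 RPKM in every IMA1 OE library and was tested only through other groups. AT3G51632 stood at -4.60 and its neighbour WNK5 at 0.93. The sum of this pair of rows changed little while its split changed, so neither value is read as a transcript response. AT1G52120 stood at -2.75.

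The remaining 4 genes were named after their values were seen. AT3G07720, a kelch repeat gene, was 102 and 89.7 RPKM on control medium and 589 and 492 RPKM on deficient medium in IMA1 OE roots, and its difference was -2.01. UGT72E1, a glucosyltransferase gene of phenylpropanoids, differed by -2.001, PP2-A8, a phloem protein gene, by -1.51 and AT3G57157, a noncoding RNA, by -1.21. Each lost its call when some 1 library was left out, with adjusted p by limma up to 0.0952 for AT3G07720, 0.067 for UGT72E1 and PP2-A8 and 0.169 for AT3G57157.

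Against IMA3 OE roots the only called differences were those of the same pair of rows, -4.48 for AT3G51632 and 1.03 for WNK5. The count without the pair was 0. Against opt3-2 roots the called differences were -4.57 for AT3G51632, -2.87 for AT1G47405, 0.94 for WNK5 and 2.31 for DIN11. AT1G47405 was under the expression filter in the IMA1 OE libraries and was tested only through other lines. The count without the pair was 2. All of these comparisons share the IMA1 OE libraries, so they are not independent of each other.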

How the results depend on the processing

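No called value of a named gene changed sign under any alternative run, while 79 values of 42 results that had not passed did, all of results no larger than 0.42 on the log2 scale. Outside the removals of 1 library, of 1269 values of named genes in the response, 1206 kept their side of the threshold, 59 lost their call and 4 gained one, and for the difference from EYFP OE these were 1242, 25 and 2. Using no spread but that of the groups being compared, 57 genes were called in the response, 2 in the difference from EYFP OE and 1 in that from opt3-2. With no filter on low values the differences from EYFP OE, IMA3 OE and opt3-2 gave 26, 34 and 22 calls. The opt3-2 difference gave 2 calls with a pseudocount of 0.1 and 2 with a filter of mean 2 RPKM. When 1 library was left out, calls ranged from 117 to 208 in the response, 2 to 18 for EYFP OE, 1 to 36 for IMA3 OE and 1 to 6 for opt3-2. The cause was not tested; such fits rest on fewer samples. Replicates share only a number. The deviations of IMA1 OE control and deficient libraries with the same number correlated at 0.48 over genes. This was the highest value over pairs of root groups, and the lowest was 0.02. A replicate block, with 1 shift per gene common to all root groups, gave 338 calls for the response in IMA1 OE roots. For the differences it gave 20 calls for EYFP OE, 2 for IMA3 OE and 6 for opt3-2. Neither the block nor the main test models a pairing within IMA1 OE roots alone, which was not tested. Under the block VTL5 (-1.32, adjusted p = 0.0262), NRAMP3 (-0.83, 0.00252), AHA7 (0.96, 0.0124) and YSL3 (-0.47, 0.0229) also passed in the response, and NRAMP3 (-1.04, 0.047) in the difference from EYFP OE. With 2 libraries per group and unknown depth, small changes and genes of low level were the least measurable.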

Other observations

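Some genes outside the lists, named after their values were seen, also rose in IMA1 OE roots by the limma test. SAM1 and MAT3, which make S-adenosylmethionine, the precursor of nicotianamine and ethylene, rose by 1.64 ± 0.13 and 0.58 (adjusted p = 8.83e-05 and 0.00059). SAM1 was 536 and 547 RPKM on control medium and 1803 and 1650.1 RPKM on deficient medium. MTK, AT5G53850 and ATARD2, annotated with methionine salvage, rose by 0.67, 0.85 and 0.75, with MTK from 58.8 and 60.8 RPKM to 101 and 88.8 RPKM. MTK lost its call without deficient replicate 1 (adjusted p = 0.0559), and ATARD2 without that library (0.077) or control replicate 2 (0.0552). Reads of these 3 genes may include those of overlapping neighbours.

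PPC1, a phosphoenolpyruvate carboxylase gene, was 125 and 146 RPKM on control medium and 308 and 291 RPKM on deficient medium (1.14, adjusted p = 0.000133). ZIP8, a metal transporter gene, rose from 1.79 and 1.71 RPKM to 15.5 and 13.7 RPKM (2.77), and IREG3, a chloroplast envelope transporter gene, by 0.65. RBOHD, an NADPH oxidase gene, rose by 0.998 (adjusted p = 0.0171), a call lost in 4 removals of 1 library (0.0917 to 0.138).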
